A study of Homo sapiens with 3 samples.

Results

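Genes that sense DNA and RNA in the cytosol were examined in NCI-H209, a human cell line from small cell lung cancer with neuroendocrine features, in which the Src-family kinase YES1 was silenced. The set was taken by gene name and not by a cut on measured values, though earlier results of these data were known. It held 10 of the 60609 genes counted: CGAS, STING1, TBK1, IKBKE, IRF3, MAVS, IFIH1, TREX1, ADAR and SAMHD1. Polyadenylated RNA was sequenced from 3 libraries. The first carried hairpin sh490 and the second hairpin sh1362, both directed against YES1, and the third carried shGFP, a control hairpin against a jellyfish gene that human cells lack. All 3 shared the lentiviral Tet-pLKO-puro backbone and induction with doxycycline at 1 µg/mL, renewed every 2 days. The time from induction to harvest is not given in the sources used here. Each hairpin is represented by 1 library, so a difference between single libraries has no replicate check.

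The pathway has a DNA route and an RNA route that meet at the same kinases. The enzyme cGAS, product of CGAS, binds double-stranded DNA and makes a cyclic dinucleotide that activates STING on the endoplasmic reticulum, while MDA5, product of IFIH1, binds long double-stranded RNA and signals through MAVS on the outer mitochondrial membrane. Both routes activate the kinases TBK1 and IKKε, product of IKBKE, which phosphorylate the transcription factor IRF3 and so turn on type I interferon genes. TREX1, ADAR and SAMHD1 restrain the system: TREX1 digests cytosolic DNA, ADAR edits adenosines in double-stranded RNA so that self RNA escapes MDA5 and the kinase PKR, and SAMHD1 hydrolyses deoxynucleotides. Small cell lung cancer lines are known for low STING.

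The libraries held 7791747, 7421552 and 4899006 counts for sh490, sh1362 and shGFP. YES1 stood at 6.79% of the shGFP level with sh490 and at 9.66% with sh1362. All 12 neuroendocrine markers examined were detected, and they summed to 4272, 5550 and 4041 CPM in sh490, sh1362 and shGFP. INSM1, singled out among them, stood at 1.82 times shGFP with sh490 and 3.36 times with sh1362, and it does not stand for the 12. The part of these line markers in the results below was not tested. Red cell markers summed to 19.1, 20.3 and 726 CPM (counts relative to depth) in sh490, sh1362 and shGFP. The 16 leukocyte markers summed to 2.31, 3.91 and 10.8 CPM in sh490, sh1362 and shGFP, and 6 of them were at 0 in every library, CD3E, CD3D, ITGAM, FCER1G and CD68 among them. For CD68 only 14.4% of the exon bases lie outside other genes' exons. Several of the sensing genes are also expressed in white blood cells, and the part of blood transcripts in the results below was not tested. Levels are averages over cells: fewer cells of a type and less RNA per cell cannot be told apart. Intervals for single libraries are exact 95% intervals and cover counting error only, since the reads carry no molecular identifiers.

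The cells transcribed the RNA route from sensor to transcription factor, whereas of the DNA route they had the sensor but almost no STING1. Of the 10 genes, 7 reached at least 1 TPM in every library: ADAR, TBK1, MAVS, IFIH1, CGAS, IRF3 and SAMHD1. TPM is the count divided by exon length and scaled to the library, and levels of different genes are compared here on that scale only. STING1 and IKBKE were at or near the counting limit. TREX1 was listed at 0 in all 3 libraries, and its 0 follows from the counting, as described further on.

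**Figure D1:**
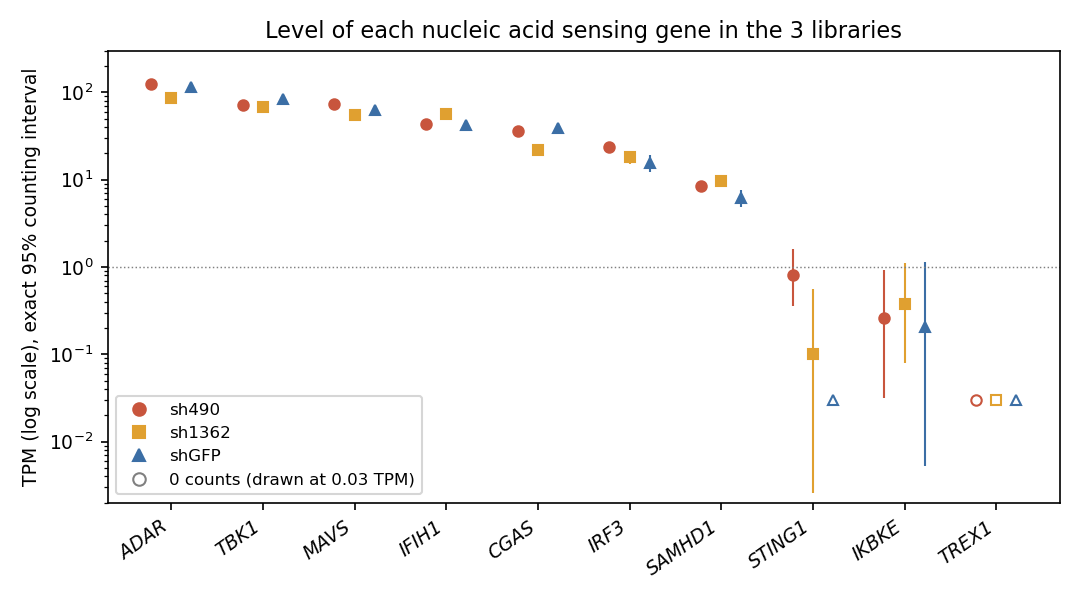
Level of each gene in sh490 (circles), sh1362 (squares) and shGFP (triangles), as TPM on a log scale, with bars for the exact 95% counting interval and a dotted line at 1 TPM; open symbols are libraries with 0 counts, drawn at 0.03 TPM. ADAR, TBK1, MAVS, IFIH1, CGAS, IRF3 and SAMHD1 lie above the line in every library, and STING1, IKBKE and TREX1 lie below it.

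Among the sensors, CGAS (ENSG00000164430.16, chromosome 6, 73413515 to 73452297, minus strand, GRCh38) had 304, 188 and 207 counts in sh490, sh1362 and shGFP. These correspond to 35.8, 21.7 and 38.8 TPM in sh490, sh1362 and shGFP, above 76.4%, 69.8% and 78.2% of protein-coding genes in those libraries. The sh1362 library was the low one for CGAS, and its counting interval of 18.7 to 25.1 TPM lay below those of sh490 (31.8 to 40.0) and shGFP (33.7 to 44.5). IFIH1 (ENSG00000115267.8, chromosome 2, 162267074 to 162318684, minus strand) had 453, 598 and 273 counts, or 43.7, 56.6 and 41.9 TPM, in sh490, sh1362 and shGFP. For IFIH1 sh1362 was the high library, and the counting intervals of sh490 and shGFP overlapped.

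The next step of the DNA route was nearly missing from the libraries. STING1 (ENSG00000184584.13, chromosome 5, 139475533 to 139482935, minus strand) had 8, 1 and 0 counts in sh490, sh1362 and shGFP. The 8 counts in sh490 equal 0.82 TPM, with an interval of 0.35 to 1.61, and the single count in sh1362 equals 0.10 TPM. The count of 0 in shGFP allows up to 0.49 TPM, the level of 3 counts. The sh490 level was at least 1.63-fold higher than that of shGFP when the 8 counts are taken as they stand and 3 counts as the shGFP limit. The exact 95% lower limit of the ratio, which also covers the counting error of the 8, is 1.04. No ratio is given for sh1362 over shGFP because neither exceeded 3 counts. None of STING1's exon bases lies in another gene's exons, so reads were not lost to overlapping genes.

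MAVS, the adaptor of the RNA route (ENSG00000088888.18, chromosome 20, 3846799 to 3876123, plus strand), had 1770, 1344 and 939 counts in sh490, sh1362 and shGFP. Its levels of 73.8, 55.1 and 62.4 TPM in sh490, sh1362 and shGFP lay above 87.6%, 85.0% and 85.5% of protein-coding genes. The adaptor of the RNA route was among the well expressed genes in the same libraries in which STING1, the adaptor of the DNA route, had at most 8 counts.

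Of the kinase pair only TBK1 was clearly present. TBK1 (ENSG00000183735.10, chromosome 12, 64452092 to 64502114, plus strand) had 927, 894 and 677 counts, or 71.3, 67.6 and 83.0 TPM, in sh490, sh1362 and shGFP. IKBKE (ENSG00000263528.8, chromosome 1, 206470476 to 206496889, plus strand) had 2, 3 and 1 counts in sh490, sh1362 and shGFP, none above the limit of 3, so that no ratio between libraries is given.

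IRF3, the factor that these kinases phosphorylate (ENSG00000126456.16, chromosome 19, 49659569 to 49665875, minus strand), had 181, 142 and 75 counts, or 23.4, 18.1 and 15.5 TPM, in sh490, sh1362 and shGFP. Both hairpin libraries lay above shGFP for IRF3, and the intervals of sh1362 (15.2 to 21.3) and shGFP (12.2 to 19.4) overlapped. Of its exon bases 19.3% are shared with BCL2L12 on the opposite strand, and reads there were left out. Counting only the length of its own bases puts IRF3 at 27.6, 21.3 and 18.2 TPM in sh490, sh1362 and shGFP.

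ADAR was the most abundant in every library of the 9 genes that could be measured. ADAR (ENSG00000160710.17, chromosome 1, 154582057 to 154628013, minus strand) had 2426, 1741 and 1435 counts, or 124, 87.2 and 117 TPM, in sh490, sh1362 and shGFP. It makes an interferon-inducible and a constitutive protein from different start sites, and counts per gene do not separate them. SAMHD1 (ENSG00000101347.9, chromosome 20, 36889773 to 36951901, minus strand) had 193, 224 and 88 counts, or 8.41, 9.60 and 6.11 TPM, in sh490, sh1362 and shGFP. These levels lay above 52.4%, 56.3% and 49.2% of protein-coding genes, near the middle. Both hairpin libraries lay above shGFP for SAMHD1, and the intervals of sh490 (7.27 to 9.69) and shGFP (4.90 to 7.53) overlapped. In SAMHD1 10.3% of the exon bases are shared with TLDC2 on the other strand.

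In order of mean level the genes ran ADAR, TBK1, MAVS, IFIH1, CGAS, IRF3, SAMHD1, STING1, IKBKE and TREX1, which is listed at 0. The ranges over the 3 libraries did not overlap between ADAR and TBK1, between IFIH1 and CGAS, between IRF3 and SAMHD1, or between SAMHD1 and STING1. They overlapped between TBK1 and MAVS, MAVS and IFIH1, CGAS and IRF3, and STING1 and IKBKE, so the order within those pairs is not settled by these libraries.

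The 0 of TREX1 does not measure its transcript. TREX1 (ENSG00000213689.14, chromosome 3, 48465811 to 48467645, plus strand) has 1448 exon bases in the annotation used for counting, and all 1448 (100%) also lie in exons of ATRIP, a neighbouring DNA damage gene on the same strand. The recorded counting settings drop a read that overlaps more than 1 gene, so no read could be given to TREX1. The counts of ATRIP, 69, 43 and 34 in sh490, sh1362 and shGFP, come from its other exons. Among protein-coding genes 295 of 19887, 1.48%, have no exon base of their own. For the other 9 sensing genes the share of own bases ran between 80.7% (IRF3) and 100% (STING1, MAVS, IFIH1 and ADAR). Neither the level of TREX1 nor a difference with either hairpin could be measured from these tables.

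**Figure D2:**
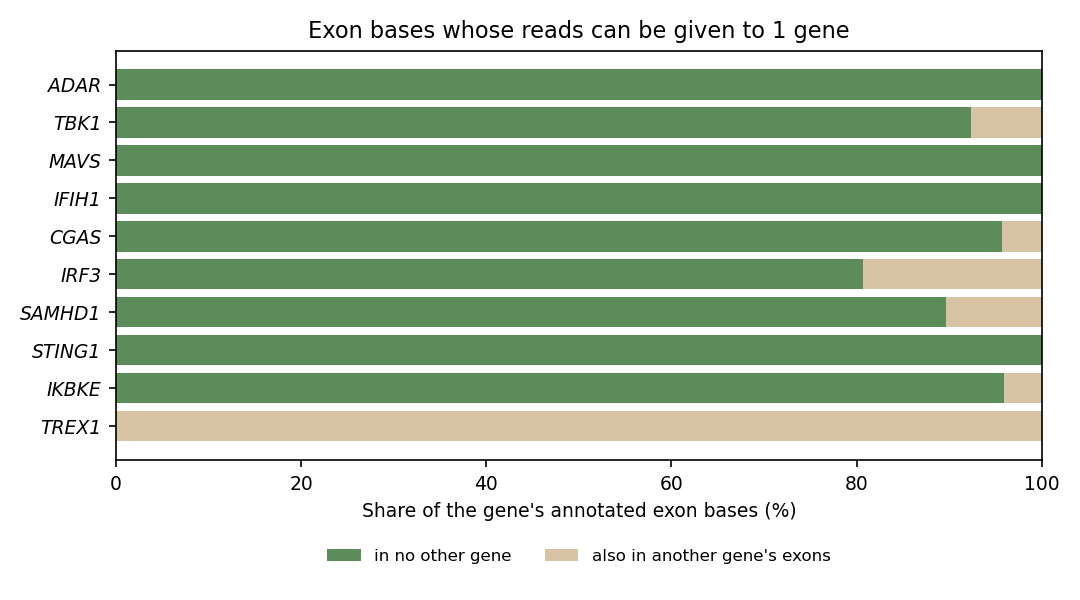
Share of each gene's annotated exon bases that lie in no other gene (green) or also in another gene's exons on either strand (tan), in percent, with genes ordered by mean level. TREX1 has 0% of its own, IRF3 80.7% and the rest 89.7% or more.

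To ask whether silencing YES1 altered these genes, the hairpin libraries were first taken as a group of 2 against shGFP. No sensing gene passed the test. The edgeR quasi-likelihood test, adjusted by Benjamini and Hochberg's method over 15708 genes, called 0 of the 7 tested, beside 0.0255% of all genes. Of the 7, 0 had an unadjusted p under 0.05 in edgeR, where 684 of the 15708 genes did. DESeq2 and limma-voom also called 0. STING1, IKBKE and TREX1 did not pass the filter on low counts. The test rests on the spread between 2 different hairpins and on a single control, and a p above the threshold does not show that a gene was unaffected.

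SAMHD1 had the largest estimate, a log2 fold of 0.59 with a standard error of 0.36 (edgeR adjusted p = 0.986), and was higher in 2 of 2 hairpin libraries. IRF3 had a log2 fold of 0.44 (standard error 0.37) and was likewise higher in 2 of 2. CGAS, at -0.42 (0.35), and TBK1, at -0.23 (0.27), were lower in 2 of 2. The estimates of the restraining and the transmitting genes did not separate by sign: IFIH1 had 0.29 (0.33), ADAR -0.13 (0.28) and MAVS 0.06 (0.28). Each of the 7 estimates lay within 2 standard errors of 0. By sign alone, 3 of the 7 were higher with both hairpins, 2 lower with both and 2 opposite, where 34.4% of all genes tested were higher with both and 34.0% lower with both. The median edgeR log2 fold was 0.06 over the 7 and 0.01 over all genes. Both hairpins share the single shGFP library.

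Singly, each hairpin left all 7 genes within 2-fold of shGFP, a distance that 2.81% of the 11632 genes with a mean of at least 5 CPM reached with sh490 and 9.29% with sh1362. With sh490, 0 of the 7 lay at least 1.5-fold from shGFP, where 13.3% of all genes did. With sh1362, 2 of the 7 lay that far, where 26.7% of all genes did: CGAS was lower, as 15.2% of all genes were, and SAMHD1 higher, as 11.5% were. The share with sh1362 is near the background. The sh1362 library also had the highest share of mitochondrial counts, 5.50%, 7.78% and 5.47% in sh490, sh1362 and shGFP. With mitochondrial genes and globins left out, the log2 folds with sh1362 were again -0.74 for CGAS and 0.73 for SAMHD1. Leaving them out changes only the scaling of these folds, and the part of the mitochondrial share in them was not tested.

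**Figure D3:**
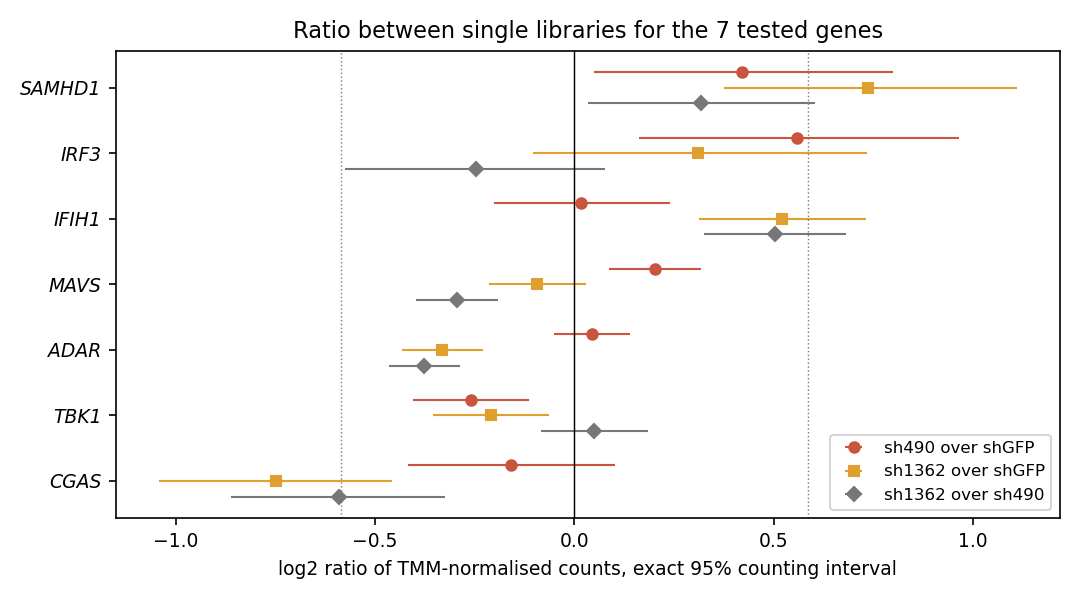
Log2 ratio of TMM-normalised counts for the 7 tested genes, sh490 over shGFP (circles), sh1362 over shGFP (squares) and sh1362 over sh490 (diamonds), with exact 95% counting intervals; dotted lines mark 1.5-fold. CGAS with sh1362 lies farthest left and SAMHD1 with sh1362 farthest right, and no ratio reaches 2-fold.

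CGAS and SAMHD1 lay farthest from the control, both with sh1362. Which of them lay farther depended on the scaling: the log2 folds with sh1362 were -0.74 for CGAS and 0.73 for SAMHD1 by TMM, but -0.69 for CGAS and 0.78 for SAMHD1 by the upper quartile, and -0.73 for CGAS and 0.74 for SAMHD1 by library totals. The normalised count of CGAS was 0.896 times that of shGFP with sh490 (interval 0.748 to 1.07) and 0.595 times with sh1362 (0.486 to 0.728). SAMHD1 was at 1.34 times shGFP with sh490 (1.03 to 1.74) and 1.67 times with sh1362 (1.30 to 2.16). IRF3 was at 1.47 times shGFP with sh490 (1.12 to 1.95) and 1.24 times with sh1362 (0.931 to 1.66). For CGAS, SAMHD1 and IRF3 both hairpins lay on the same side of the control, but the counting interval held 1 for CGAS with sh490 and for IRF3 with sh1362.

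Of the RNA route, IFIH1, MAVS and ADAR gave different values by hairpin, while the TBK1 values lay within counting error of each other. IFIH1 was at 1.01 times shGFP with sh490 (0.869 to 1.18) and 1.43 times with sh1362 (1.24 to 1.66). MAVS was at 1.15 times shGFP with sh490 (1.06 to 1.25) and 0.938 times with sh1362 (0.862 to 1.02). ADAR was at 1.03 times shGFP with sh490 (0.966 to 1.10) and 0.795 times with sh1362 (0.741 to 0.853). With sh1362 IFIH1 lay above the control and ADAR below it, while with sh490 the counting intervals of both genes included the control level. Neither gene passed the edgeR test of the hairpin group. Whether the values of IFIH1 and ADAR with sh1362 are related was not tested. TBK1 was at 0.835 times shGFP with sh490 (0.756 to 0.924) and 0.865 times with sh1362 (0.782 to 0.957). Counting error is narrow for these abundant transcripts and leaves out the spread between cultures.

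Set directly against each other, without the shGFP library, sh1362 and sh490 differed most in CGAS, at a normalised ratio of 0.664 (0.551 to 0.799) for sh1362 over sh490. None of the 7 genes lay 2-fold apart, where 5.9% of all genes did. CGAS lay just past 1.5-fold, 1 of 7, where 20.4% of all genes lay that far and 12.2% that far in its direction. The ratio of sh1362 over sh490 was 1.42 for IFIH1 (1.25 to 1.605), 0.771 for ADAR (0.724 to 0.820) and 0.815 for MAVS (0.759 to 0.876). It was 1.04 for TBK1 (0.944 to 1.14), 1.25 for SAMHD1 (1.02 to 1.52) and 0.842 for IRF3 (0.671 to 1.06). With 1 library each, these ratios compare libraries, and no test was made.

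IFIH1 is itself interferon-inducible, and its promoter is shown because of the sensing gene promoters available it was the only one in which the letters of the interferon-stimulated response element were found. Promoter sequences, from 250 bases before to 50 after the start site, came from RefSeq (GRCh38.p14) for 7 of the 10 genes; CGAS, STING1 and IRF3 were not among them. The letters searched, on both strands, were GAAA, a pair of bases of any kind, and GAAA again. The 170 bases before the IFIH1 start site, chr2:162318685-162318854, minus strand, carry the matches in capitals, of which the first pair overlap and read on the opposite strand.
IFIH1: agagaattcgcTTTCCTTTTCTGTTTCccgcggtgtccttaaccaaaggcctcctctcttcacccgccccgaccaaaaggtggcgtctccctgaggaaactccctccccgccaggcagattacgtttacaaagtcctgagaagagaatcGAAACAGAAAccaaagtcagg
The match nearest the gene lies 21 to 12 bases before the start site. Of 27305 genes with a promoter sequence 4.38% hold the letters, and of the sensing genes 1 of 7. Among listed genes with a promoter sequence, 11 of 12 interferon genes and early targets hold them. So do 3 of 6 other RNA sensors (TLR3, EIF2AK2 and OAS3), not the same 6 as those tested below. The letters were found in 1 of 4 other DNA sensors, 2 of 11 adaptors and kinase partners and 2 of 12 RIG-I-like receptor regulators. They were found in 1 of 7 other kinases and transcription factors, 1 of 16 cGAS and STING regulators and 0 of 13 nucleases and related enzymes. A match is a description of the sequence only. Whether the match bears on the values of IFIH1 was not tested.

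Further genes of the pathway were read from 8 lists with 97 entries, of which 80 were tested and 0 passed the edgeR test, nor DESeq2 or limma-voom. Of the 80, 1 (TRADD) had an unadjusted p under 0.05 in edgeR, where 684 of all 15708 genes tested did. Among the 80, 29 (36.3%) were higher with both hairpins and 27 (33.8%) lower with both, near the 34.4% and 34.0% of all genes. The same shares of all genes apply to each list below, and both hairpins share the single shGFP library. The median over these genes was 0.04 for sh490 minus shGFP and -0.01 for sh1362 minus shGFP on the log2 scale, against 0.00 and 0.00 for all genes. Log2 folds of single hairpins below are on the scale of normalised CPM with a prior count of 2, and counts are not adjusted for depth. A gene could pass the filter on low counts through 1 library alone, so counts by direction and medians in lists with low genes only describe the genes that passed.

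**Figure D4:**
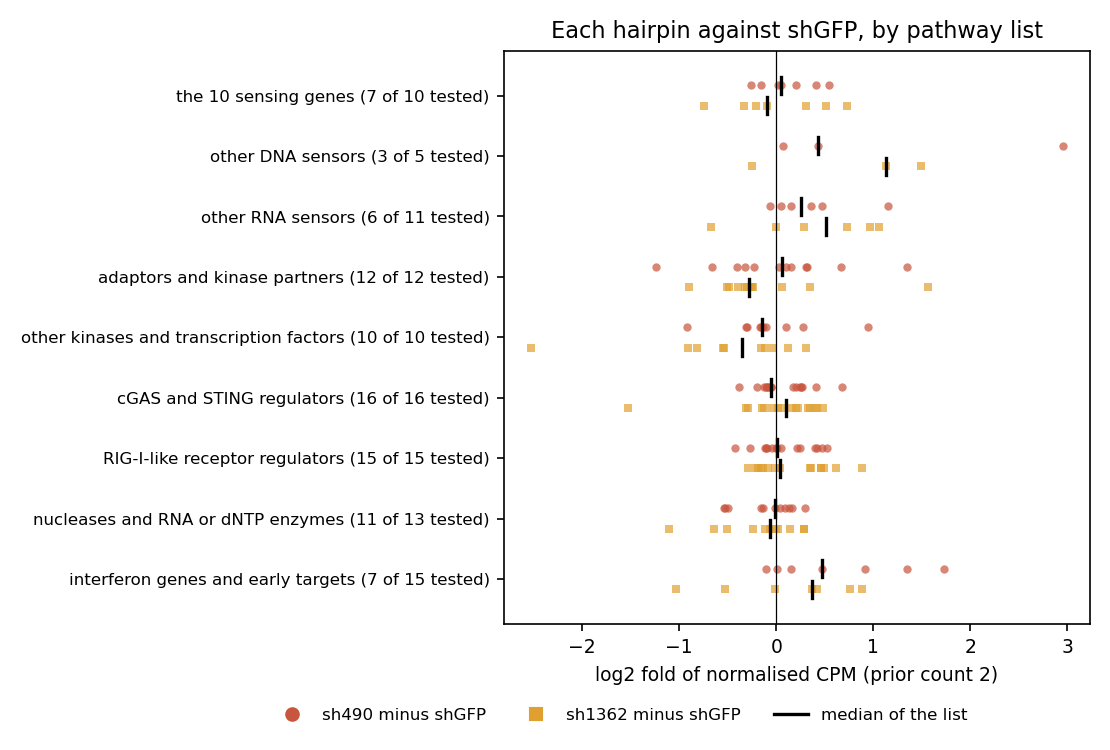
Log2 fold of normalised CPM (prior count 2) of each tested gene, sh490 minus shGFP (circles) and sh1362 minus shGFP (squares), by pathway list, with a bar at each list's median. Most genes lie within 1 log2 unit of 0, and AIM2 with sh490 at 2.96 and IKBKG with sh1362 at -2.53 lie farthest out.

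Other DNA sensors were mostly low. The helicase DDX41, reported to sense DNA, had 152, 87.1 and 110 TPM in sh490, sh1362 and shGFP. AIM2, which builds an inflammasome on cytosolic DNA, had 16, 4 and 0 counts in sh490, sh1362 and shGFP, and the DNA-binding protein IFI16 had 7, 16 and 4 counts. AIM2 did not pass the test (edgeR adjusted p = 0.986). TLR9, with 13.7% of its exon bases outside other genes, had 0 counts in all 3 libraries. ZBP1 had 2, 0 and 0 counts in sh490, sh1362 and shGFP.

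Of 11 other RNA sensors 6 were tested. EIF2AK2, which encodes PKR, lay at 39.9, 38.2 and 40.6 TPM in sh490, sh1362 and shGFP, with overlapping counting intervals. RIGI, the sensor of RNA ends that shares MAVS with MDA5, had 118, 105 and 56 counts in sh490, sh1362 and shGFP, log2 folds over shGFP of 0.35 (sh490) and 0.29 (sh1362). OAS1, which makes an oligoadenylate messenger on binding double-stranded RNA, had 72, 63 and 19 counts in sh490, sh1362 and shGFP, log2 folds over shGFP of 1.15 (sh490) and 1.06 (sh1362). OAS1 did not pass (edgeR adjusted p = 0.986). OAS3, of the same family, had 19.1, 7.80 and 13.3 TPM in sh490, sh1362 and shGFP, and NLRP1 had 13, 23 and 7 counts. In this list 4 genes were higher with both hairpins and 0 lower with both, where 34.4% and 34.0% of all genes were.

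All 12 adaptors and kinase partners were tested, with 2 higher and 4 lower with both hairpins. TRADD, an adaptor of TNF receptor signalling that also binds MAVS, had 58, 63 and 13 counts in sh490, sh1362 and shGFP, log2 folds over shGFP of 1.35 (sh490) and 1.56 (sh1362). Its unadjusted p was 0.029 and its edgeR adjusted p 0.986. TANK, a scaffold of TBK1, had 35.4, 64.4 and 81.5 TPM in sh490, sh1362 and shGFP, and the kinase RIPK1 had 67.8, 31.2 and 41.4 TPM. The sh490 library was thus the lowest for TANK and the highest for RIPK1. OPTN, a ubiquitin-binding receptor and TBK1 partner, had 101, 72.1 and 91.5 TPM in sh490, sh1362 and shGFP, and the death domain adaptor FADD had 14, 8 and 11 counts. For FADD only 45.1% of the exon bases lie outside other genes' exons, and reads on the shared bases were left out.

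Among 10 other kinases and transcription factors, 7 were lower with both hairpins and 2 higher with both. Of all genes tested 34.0% were lower and 34.4% higher with both. JUN, a subunit of AP-1, had 193, 195 and 231 TPM in sh490, sh1362 and shGFP. Its partner ATF2 had 111, 109 and 118 TPM, and CHUK, an NF-kB pathway kinase, had 61.2, 48.3 and 55.4 TPM, in sh490, sh1362 and shGFP. IKBKG, the regulatory subunit of the NF-kB kinase, had 18, 4 and 22 counts in sh490, sh1362 and shGFP, but it has a near-identical pseudogene copy, so its level is uncertain. IRF7, the inducible relative of IRF3, had 18, 10 and 5 counts in sh490, sh1362 and shGFP, log2 folds over shGFP of 0.95 (sh490) and 0.31 (sh1362).

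Of 16 genes that act on cGAS and STING 5 were higher and 4 lower with both hairpins. BANF1, a chromatin protein that keeps cGAS off nuclear DNA, had 290, 284 and 292 TPM in sh490, sh1362 and shGFP. SURF4, which with COPA returns STING to the endoplasmic reticulum, had 272, 377 and 303 TPM in sh490, sh1362 and shGFP, and COPA had 178, 199 and 184 TPM. ENPP1, which degrades the cyclic dinucleotide outside the cell, had 15.3, 4.02 and 12.5 TPM in sh490, sh1362 and shGFP, so that only sh1362 was low. LRRC8A, part of a channel that carries the dinucleotide, had 38.7, 28.0 and 23.3 TPM in sh490, sh1362 and shGFP.

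Of 15 RIG-I-like receptor regulators 7 were higher and 6 lower with both. The mitochondrial fusion protein MFN2 had 211, 185 and 218 TPM in sh490, sh1362 and shGFP, and TOMM70, an import receptor that binds MAVS, had 143, 168 and 139 TPM. The RNA-binding protein PCBP2, which promotes MAVS breakdown, had 107, 103 and 107 TPM in sh490, sh1362 and shGFP, nearly the same in each. TRIM25 and RNF135 are ubiquitin ligases that act on RIG-I. TRIM25 had 19.2, 20.6 and 14.2 TPM in sh490, sh1362 and shGFP, and RNF135 had 35, 44 and 15 counts. Both ligases were higher with both hairpins and neither passed the test (edgeR adjusted p = 0.986).

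Among nucleases and related enzymes, 11 of 13 were tested, 3 higher and 5 lower with both. DNASE2, the lysosomal DNase, had 128, 126 and 121 TPM in sh490, sh1362 and shGFP. PNPT1 and SUPV3L1 clear double-stranded RNA of mitochondria. PNPT1 had 83.0, 84.5 and 89.7 TPM in sh490, sh1362 and shGFP, and SUPV3L1 had 66.0, 74.8 and 64.9 TPM. LSM11, a histone RNA processing factor, had 14.5, 8.82 and 20.4 TPM in sh490, sh1362 and shGFP, and DICER1, which cuts double-stranded RNA into small RNAs, had 48.9, 53.4 and 67.0 TPM. LSM11 and DICER1 were lower with both hairpins and did not pass the test (edgeR adjusted p = 0.986).

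At the end of the route, the 4 interferon genes examined, IFNB1, IFNL1, IFNL2 and IFNL3, had 0 counts in every library. At a limit of 3 counts this allows up to 0.385, 0.404 and 0.612 CPM in sh490, sh1362 and shGFP, and by the exact 95% interval up to 0.473, 0.497 and 0.753 CPM. IFNL2 and IFNL3 are near-identical copies, and reads that matched both were left out, so their 0 is uncertain. Of the 15 genes in this list 7 were tested, 4 higher and 1 lower with both hairpins. The ubiquitin-like ISG15 had 43, 52 and 26 counts in sh490, sh1362 and shGFP, log2 folds over shGFP of 0.01 (sh490) and 0.37 (sh1362). IFI6 had 38, 17 and 6 counts, IFI44 12, 3 and 2 counts, IFIT1 41, 19 and 27 counts, and IFIT2 33, 30 and 10 counts, in sh490, sh1362 and shGFP. IFI6 and IFIT2 were higher with both hairpins and IFIT1 lower with both. Of the 7 tested, 0 passed.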

How the data were processed

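The values deposited by the authors are raw read counts per gene, not normalized, in 1 table per library. Reads were aligned to GRCh38 with STAR 2.6.1c after FastQC 0.11.8, per the submitters' processing notes. Per the file headers, they were counted over exons of GENCODE version 32 with featureCounts 1.6.0. That command line gives no strand, pair or multi-mapping option, so reads of both strands were added and reads touching several genes or places were left out. Symbols were matched for 60295 of 60609 genes; biotypes came from GENCODE version 29.

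From these counts TPM used the exon lengths in the tables, and overlap between genes used their exon coordinates. edgeR 4.0.16 (R 4.3.3) fitted both YES1 hairpins as 1 group of 2 against shGFP, with TMM and filterByExpr. The test was a robust quasi-likelihood F test, two-sided, called at Benjamini-Hochberg adjusted p under 0.05. The fit was also run on simulated data that took their spread from these libraries, so that run does not check the spread. The lone control was assumed to vary like the hairpins, and no label tells of separate cultures: the p-values capture no more than the difference among these samples, which may be technical. Single libraries were compared without a test. DESeq2 1.42.0 and limma 3.58.1 were alternatives. Depth was 4899006 to 7791747 counts. The members and lists were chosen with earlier results of these data known. Genes of the other lists were named by the 3 largest mean TPM and the 2 largest remaining edgeR folds. RIGI, TLR3, TLR9, ZBP1 and the interferon genes were named after their values were seen. Marker lists were to be read by sums and by members at 0, and INSM1 was named outside that rule. Some genes are not reported here, including 1 that the naming rule would give.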

Additional observations from a re-analysis of the deposited data

How the results depend on the processing

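None of the 10 sensing genes and none of the 97 other pathway entries passed under any alternative run: 3 other scalings, 2 other filters on low counts, DESeq2, limma-voom, and the tables without mitochondrial genes and globins. The adjusted p of the 7 tested sensing genes ranged between 0.916 and 0.9998 there, and each kept the sign of its log2 fold. Over all genes, calls numbered 4, but 58 with no filter on low counts, 2 with limma-voom and 1 without mitochondrial genes and globins. Globin genes were among the 4, so the last run drops their calls by leaving them out. With each hairpin left out in turn the log2 fold, then a value with no test, ranged between -0.74 and -0.16 for CGAS, 0.41 and 0.73 for SAMHD1, 0.31 and 0.55 for IRF3, 0.02 and 0.52 for IFIH1, -0.26 and -0.21 for TBK1, -0.33 and 0.04 for ADAR, and -0.09 and 0.20 for MAVS. Scaled by library totals only, 1 gene (IRF3) lay at least 1.5-fold from shGFP with sh490, against 0 otherwise. Between the hairpins 0 genes lay 1.5-fold apart with DESeq2 size factors, with the upper quartile or without mitochondrial genes and globins, against 1 (CGAS). Levels from own exon bases, chosen after seeing the data, left 7 genes at 1 TPM or more. No paired analysis was possible because the replicate numbers are not from the labels and shGFP has 1 library. The control could not be left out, so results against it rest on shGFP.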
